A study of Homo sapiens with 12 samples.

Results

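The comparison described here is that of untreated culture at 48 h against 24 h in HK-2 cells, an established line of human kidney proximal tubule epithelium. The 6 control arrays of the series were taken by their titles, 3 at 24 h and 3 at 48 h, out of 12 arrays in all, and each 48 h array was paired with the 24 h array of the same biological replicate number. Control cells had received the vehicle alone. The other 6 arrays, 3 at each time, came from cells dosed at the low level with the agent that the labels call Nnm. They serve here to show which changes over time differ from those of the controls. They also count in the choice of genes to test and of 1 probe set per gene, which used all 12 arrays. All groups shared the same medium, with 5 mM glucose, 10 ng/ml EGF, 36 ng/ml hydrocortisone, insulin, transferrin and selenite. Cells were plated 24 h before dosing and were about 90% confluent when dosing began. Whether medium was renewed between 24 h and 48 h, and how many cells each well held at harvest, are not given in the sources used here. HK-2 is 1 line, immortalised with human papillomavirus genes, so the replicates carry no spread between donors.

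Epithelial cells that fill their dish meet neighbours on all sides, and in many epithelia this contact slows the entry into DNA replication and mitosis. Over the same period cells draw down the glucose and amino acids of their medium, and they respond to growth factors and steroid hormones in it. Proximal tubule cells in the kidney reabsorb glucose, amino acids, bicarbonate and filtered protein through transporters of the apical and basolateral membranes, and in culture much of this program is lost early and is regained in part when cells stop dividing.

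The arrays carried 54675 probe sets, read as expression on a log2 scale, so that a rise of 1 is a 2-fold rise. Genes with a probe set above a log2 of 4 on at least 3 of the 12 arrays were tested, 10907 in all, and between 40.4% and 40.6% of probe sets lay above that level on the control arrays. Keratin and adhesion genes of epithelium were all measured, among them KRT18 (13.00 at 24 h, mean of 3) and EPCAM (12.95). Of 12 markers of the proximal tubule that were on the array, PAX8, CDH6 and CDH16 were measured and the other 9, among them the endocytic receptors LRP2 and CUBN and the water channel AQP1, lay under a log2 of 4 on every control array. The 5 leukocyte and 2 red cell markers did so too, as did 6 of 8 endothelial markers and 5 of 10 fibroblast markers. Markers of other nephron segments were in part expressed. Of 13 markers of distal nephron and collecting duct 9 lay under that level, and SLC12A1, AQP3, SCNN1A and TFCP2L1 did not. Of 5 podocyte markers 2 lay under it, NPHS1 and WT1, and PODXL, SYNPO and PTPRO did not. On the first principal component of the control arrays, with 54.8% of the variance, the 48 h array lay above its 24 h partner by 36.3, 29.6 and 35.8 units for replicates 1 to 3. Both replicate 3 arrays were lower than the others of their time. Replicate 2 arrays had the lowest 5′ against 3′ signal of ACTB, a sign of RNA or labelling quality, at -1.09 and -1.17 against -0.766 to -0.826 on the other 4. With the mean of each time taken out, same-numbered arrays correlated at 0.517 to 0.597 over genes and arrays of different numbers at -0.222 to -0.365. Since deviations from a group mean sum to 0, positive values for same numbers go with negative ones for different numbers, and these correlations are a description only. The whole analysis works with differences within a pair because titles give the same replicate numbers at both times.

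Between 24 h and 48 h, 836 genes rose (7.66% of those tested) and 1027 fell (9.42%), 1863 or 17.1% together at an adjusted p under 0.05 in limma with the replicate number as a block. Counts of calls in the gene lists below are to be read beside the shares of 7.66% and 9.42%. Most changes were small. Of these genes 85 rose and 60 fell more than 2-fold, and the median SE of a log2 change was 0.0834. The 24 h and 48 h values did not overlap in 26.3% of genes tested, and 4057 genes (37.2%) had an unadjusted p under 0.05. The number of calls rests on the pairing and on all 3 pairs. Without a replicate term 4 genes passed with the 6 control arrays (FREM2, INHBA, MAN1C1 and RAB17) and 14 with all 12 arrays. Without the replicate 2 pair 582 passed, and without the replicate 1 pair or without the replicate 3 pair limma called 0. In these last fits 3017 and 3005 genes had an unadjusted p under 0.05, among them 1858 and 1863 of the 1863. All 1863 had the same direction in each of the 3 pairs, as did 58.8% of all genes tested. The 1863 were chosen on these same pairs, so the counts among them are a description and no separate support. In bulk RNA, fewer cells of a kind and less of an RNA per cell cannot be told apart.

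Genes of the division cycle had the largest median change of the 37 lists examined. Of 45 mitosis and spindle genes tested 41 fell and 0 rose, with a median log2 change of -0.59 against -0.02 over all genes, and in 44 of the 45 the 3 pairs all went down (32% of all genes tested). CCNB1, the cyclin that drives entry into mitosis, stood at 12.29, 12.36 and 12.69 at 24 h (replicates 1 to 3) and at 11.41, 11.74 and 11.88 at 48 h. Every 48 h value was below every 24 h value, and the change was -0.77 (SE 0.08, adjusted p = 0.0152 in limma). MKI67, the proliferation antigen, went from 11.30, 11.52 and 11.78 to 10.75, 10.90 and 11.04. Again the groups did not overlap, and the fall was 0.64 (adjusted p = 0.0163). SPC25, a kinetochore subunit, had the lowest change of the list at -0.97, followed by CDC20, the activator of the anaphase-promoting complex, at -0.93 and CCNA2, the S and G2 cyclin, at -0.90. AURKB, PLK1, KIF23, CDCA8 and FOXM1, the last a transcription factor of late cycle genes, fell by 0.79 (1.27 with probe sets averaged), 0.78, 0.87, 0.75 and 0.68. CDK1 and TOP2A fell less, by 0.36 and 0.35. The 4 members that did not pass were CDC25C (-0.30), PTTG1 (-0.32) and NUSAP1 (-0.25), lower at 48 h without overlap, and CDC25B (0.19), whose values overlapped. Without the replicate 2 pair 24 of the 45 passed, and without the replicate 1 or the replicate 3 pair 0 did, while the median stayed between -0.57 and -0.62.

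Promoters of the mitosis genes are shown because the members moved together and many of them carry the same elements. The cell cycle homology region, TTTGAA, is an element through which repressor and activator complexes time late cycle genes, and CCAAT is bound by NF-Y. Both were searched on both strands in RefSeq promoters of GRCh38.p14, 250 bases before to 50 after the gene start. TTTGAA was found in 26 of 37 mitosis promoters (70.3%), against 15.4% of all 27305 promoters and 9.53% of those of the genes tested. CCAAT was found in 29 of the 37 (78.4%), against 35.7% and 37.3%, and both elements in 22 (59.5%), against 6.08% and 4.17%. Of all genes that fell, 17.7% held TTTGAA and 10.6% both, and of those that rose 9.24% and 3.43%. Promoters of the DNA replication list held TTTGAA in 2 of 35 (5.71%), CCAAT in 19 (54.3%) and both in 1 (2.86%). CCAAT was also in 7 of 12 promoters of the glucose-sensing and alpha-arrestin list (58.3%), so a raised share of CCAAT was not particular to mitosis genes. The 3 mitosis genes with both elements and the smallest p, a choice made after the motifs were seen, are printed from 250 bases before the start up to the start, 5′ to 3′, with each TTTGAA and each CCAAT, on either strand, in capitals. They lie on the plus strand at chr1:43358731-43358980 (CDC20), chr2:26785806-26786055 (CENPA) and chr1:37692266-37692515 (CDCA8).
CDC20: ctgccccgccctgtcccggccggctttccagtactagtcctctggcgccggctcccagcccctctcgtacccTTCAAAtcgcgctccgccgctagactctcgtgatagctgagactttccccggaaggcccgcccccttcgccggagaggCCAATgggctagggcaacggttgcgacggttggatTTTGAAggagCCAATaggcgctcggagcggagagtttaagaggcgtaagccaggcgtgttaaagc
CENPA: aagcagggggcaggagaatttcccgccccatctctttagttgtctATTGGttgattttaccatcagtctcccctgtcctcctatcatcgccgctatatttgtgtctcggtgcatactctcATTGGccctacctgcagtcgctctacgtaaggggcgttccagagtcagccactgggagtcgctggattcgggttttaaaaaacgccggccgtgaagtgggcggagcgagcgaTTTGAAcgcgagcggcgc
CDCA8: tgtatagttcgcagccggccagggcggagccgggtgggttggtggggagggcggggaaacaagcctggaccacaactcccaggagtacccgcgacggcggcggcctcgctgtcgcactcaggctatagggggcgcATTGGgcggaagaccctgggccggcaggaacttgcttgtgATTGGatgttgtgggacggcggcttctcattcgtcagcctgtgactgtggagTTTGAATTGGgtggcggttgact
In CENPA and CDCA8 the TTTGAA begins at -18 and -23 from the start, and in CDCA8 it overlaps a CCAAT of the other strand, whose first letter is at -18. CDC20 has TTTGAA at -65 and a CCAAT at -55. The 3 genes fell by 0.93, 0.64 and 0.75 on the log2 scale. A match of letters is a description and not a bound site.

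DNA replication genes fell as well, but in smaller number. Of 39 tested 22 fell and 0 rose, with a median of -0.44. MCM10, which helps to activate the replicative helicase, was at 8.18, 8.33 and 8.63 at 24 h and at 6.57, 6.83 and 7.59 at 48 h. The groups did not overlap, and the change of -1.38 (SE 0.13, adjusted p = 0.0135) was the lowest of the list, or -0.90 with its probe sets averaged. The helicase loading and firing factors CDC6 and CDC45 fell by 0.96 each, ORC1 by 0.94, the maintenance methylation cofactor UHRF1 by 0.88 and the checkpoint mediator CLSPN by 0.86. CCNE1 and CCNE2, the G1 to S cyclins, fell by 0.58 and 0.47. Of the core helicase subunits MCM2 to MCM7 only MCM7 passed (-0.50), and PCNA (-0.26, adjusted p = 0.134) did not. Without the replicate 2 pair 6 of the 39 passed, and without either other pair 0.

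Of 23 G1 cyclins, CDK inhibitors and genes of quiescence 5 rose and 0 fell (4 and 2 with probe sets averaged), with a median of -0.03. The share that rose was 21.7%, against 7.66% of all genes tested. BTG1, an antiproliferative gene of resting cells, was at 11.60, 11.89 and 11.30 at 24 h and at 12.35, 12.55 and 11.85 at 48 h. The lowest 48 h value, that of replicate 3, lay under the highest at 24 h, yet each pair rose, by 0.65 on average (SE 0.07, adjusted p = 0.016). The CDK inhibitors CDKN1C and CDKN1B rose by 0.60 and 0.30, MNT, an antagonist of MYC, by 0.43 and TOB1 by 0.33 (adjusted p = 0.0528 with probe sets averaged). CDKN1A, the p53-induced inhibitor, had a change of -0.18 (adjusted p = 0.287), and CCND1, the cyclin of growth factor signals, one of -0.74 with values that overlapped (adjusted p = 0.127). MYC itself rose by 0.43, from 12.45, 12.05 and 12.07 to 12.88, 12.53 and 12.44. Of the 25 ribosome biogenesis genes, many of them MYC targets, 0 rose and 3 fell, with 17 lower in all 3 pairs. BYSL fell by 0.46 and UTP15 by 0.55, the latter with an adjusted p of 0.109 when its probe sets were averaged. Of 9 histone genes 1 rose and 2 fell. Of 22 p53 targets 2 rose and 3 fell (9.09% and 13.6%, against 7.66% and 9.42% of all genes tested). Of 20 apoptosis regulators 1 rose and 3 fell (5% and 15%), and BCL2L1 (-0.68), which protects mitochondria, was among the falls.

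**Figure D1:**
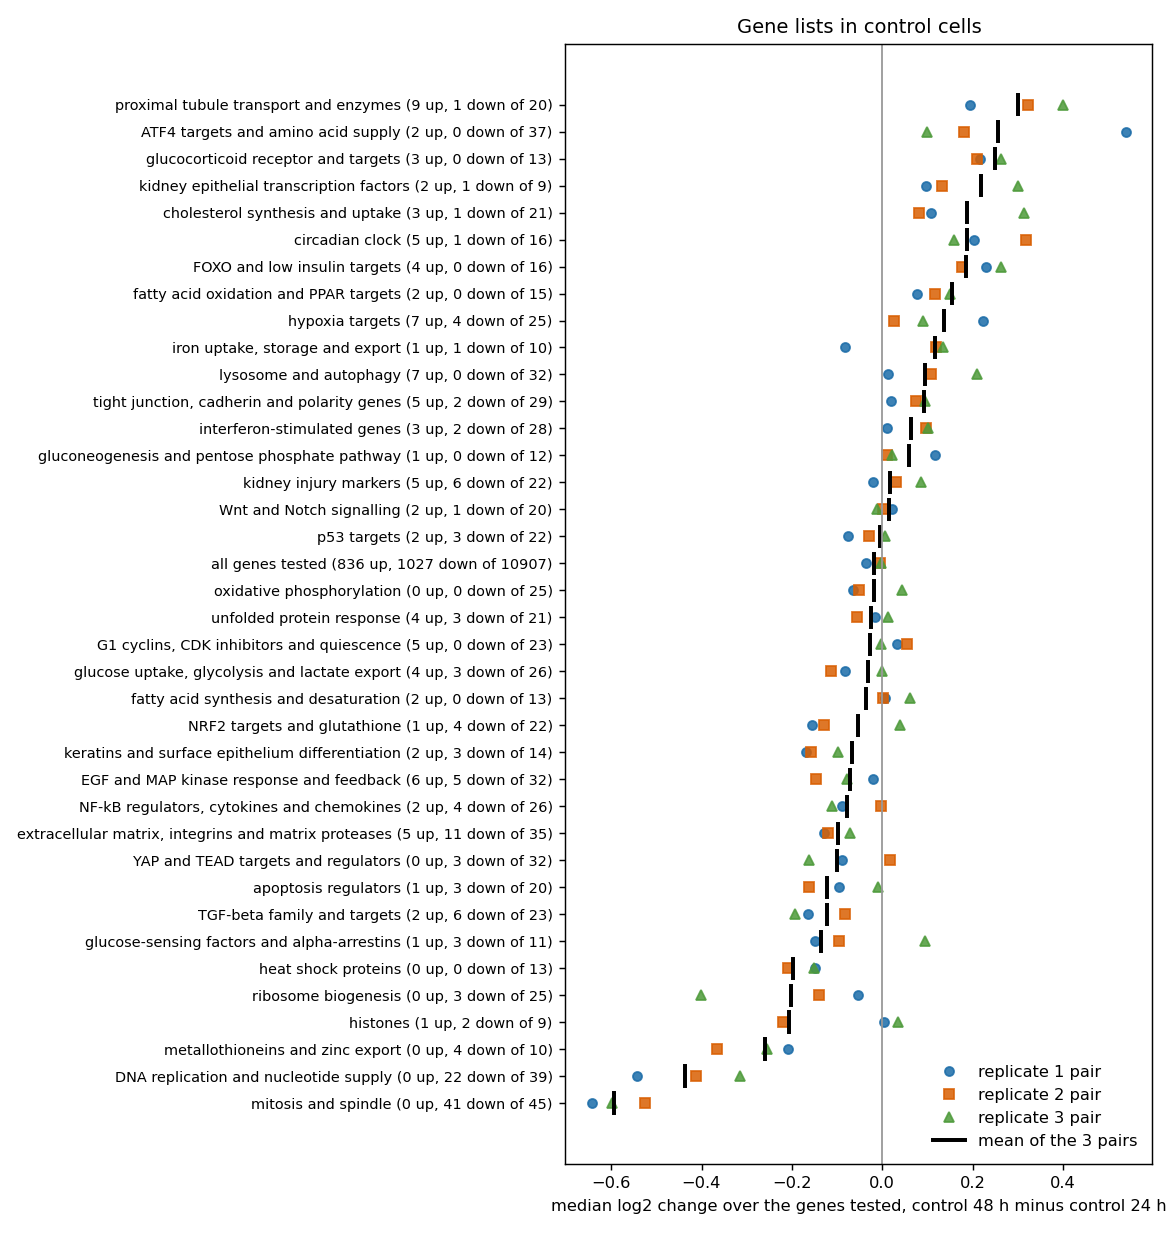
Median log2 change from 24 h to 48 h in control cells for each gene list (rows), on a log2 axis, with 1 symbol per replicate pair and a bar for the median of the mean change. Mitosis and spindle lies lowest at -0.59 with its 3 pairs close together, DNA replication next at -0.44, and proximal tubule transport highest at 0.30.

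BLNK, an adaptor protein best known from B cell receptor signalling, had the largest fitted rise of all genes tested. It was at 4.45, 4.49 and 2.67 at 24 h and at 7.52, 8.02 and 7.00 at 48 h. All 48 h values lay above all 24 h values, by 3.64 on the log2 scale (SE 0.25, adjusted p = 0.0121). The replicate 3 value at 24 h lies in the background range and the other 24 h values just above it, so the size of the rise is poorly measured. The leukocyte markers were at background on every array. COL4A3, the alpha-3 chain of basement membrane collagen IV, went from 2.52, 3.16 and 2.56 to 4.29, 5.79 and 5.00. The 24 h values lie in the background range, so the fitted rise of 2.28 (adjusted p = 0.0121) starts from no measured level. COL4A4, which shares a promoter region with COL4A3 and assembles with it, rose by 1.26. INHBE, a secreted activin subunit that is induced by stress signalling, was at 6.24, 6.88 and 5.96 and then at 9.53, 8.28 and 7.83, with the replicate 1 culture highest at 48 h (change 2.19, SE 0.37, adjusted p = 0.0281).

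Other large rises were of genes with varied roles. SLC6A13, a sodium-coupled carrier of GABA and taurine found in kidney, rose from 8.26, 8.74 and 7.53 to 10.51, 10.50 and 9.76. The change was 2.08, or 1.40 with probe sets averaged. RAB17, a small GTPase of epithelial membrane traffic, rose from 6.88, 7.13 and 6.89 to 9.05, 8.75 and 8.63. The 6 values form separate groups with little spread (change 1.85, SE 0.13), and RAB17 also passed with no replicate term. TFCP2L1, a transcription factor of distal nephron and collecting duct, rose from 5.41, 6.18 and 5.28 to 7.22, 7.43 and 7.06, by 1.62, or by 0.93 when its probe sets were averaged. KRT20, a keratin of differentiated surface epithelium and of injured tubule, rose by 1.69. PLA1A, a phosphatidylserine lipase, and SLC44A5, a choline transporter-like protein, rose by 1.68 and 1.66, the matrix protease ADAMTS5 by 1.95 and the guidance receptor ROBO2 by 1.84. With probe sets averaged SLC44A5 rose by 1.49 and ADAMTS5 by 1.60. MOB3B and MACROD2 rose by 2.23 and 2.27 (MACROD2 by 1.56 with probe sets averaged) from 24 h values mostly under a log2 of 4. MACROD1, another ADP-ribose hydrolase, rose by 1.56.

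**Figure D2:**
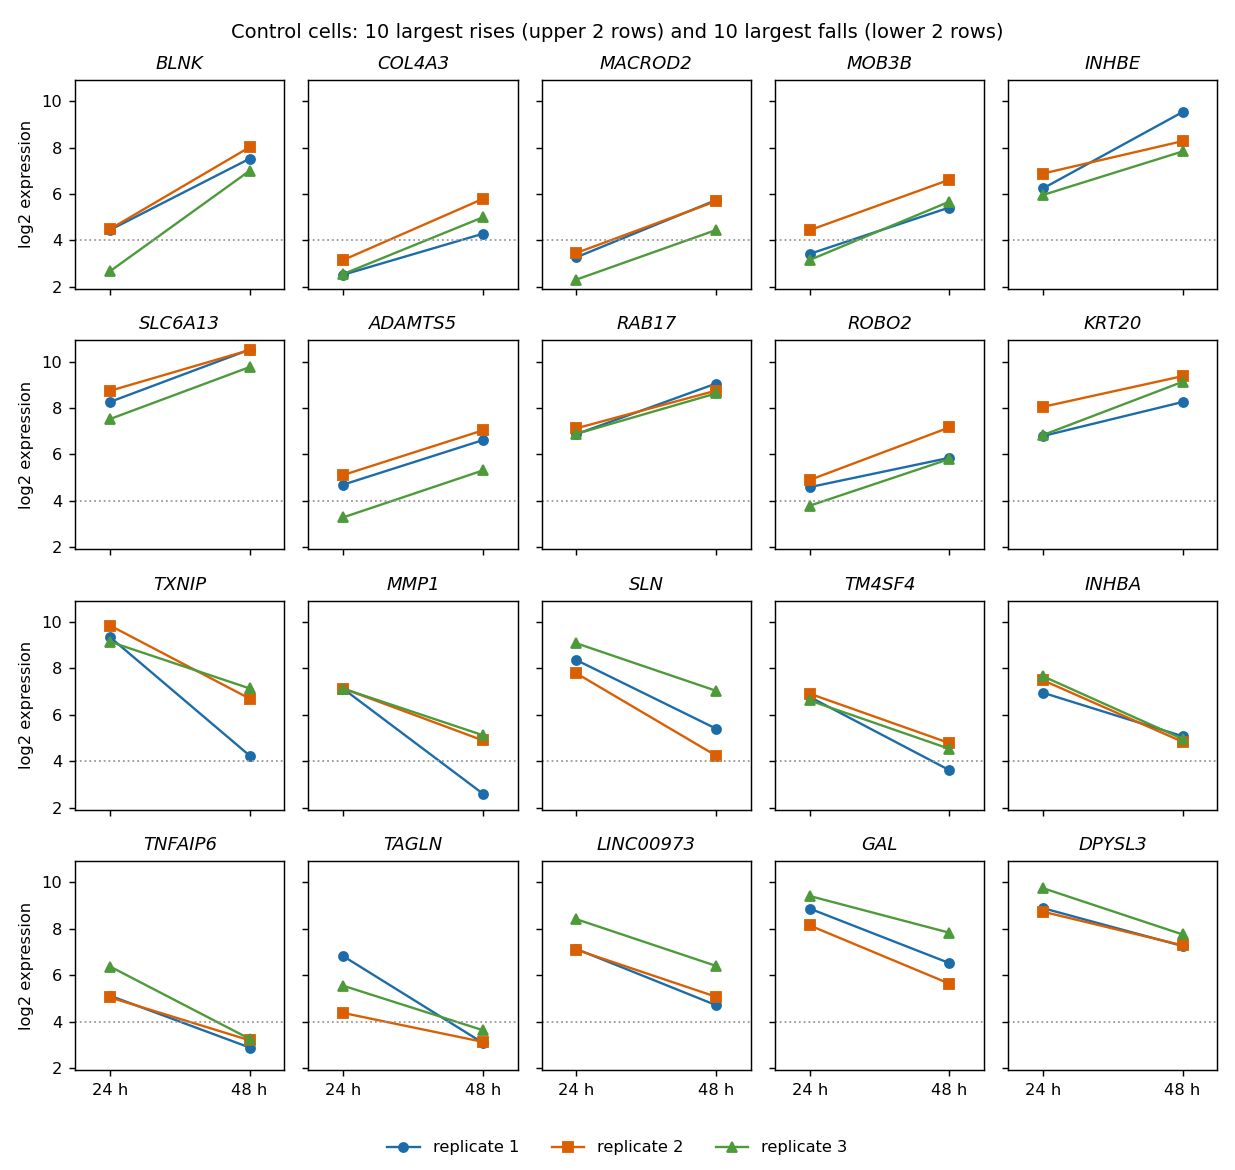
Log2 expression (vertical axis, shared by all panels) of the 10 largest rises and the 10 largest falls at 24 h and 48 h in control cells, with 1 line per replicate pair and a dotted line at a log2 of 4. BLNK climbs in all 3 pairs, TXNIP drops furthest in replicate 1, and several genes, such as COL4A3 and TAGLN, start or end under the dotted line.

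TXNIP had the largest fall. Its product, an alpha-arrestin that binds thioredoxin and limits glucose uptake, is made when sugar phosphates in the cell are high. TXNIP stood at 9.35, 9.85 and 9.15 at 24 h and at 4.25, 6.70 and 7.14 at 48 h. Every culture fell, and the replicate 1 culture ended near background. The mean change was -3.42, or 10.7-fold lower (SE 0.59, adjusted p = 0.0284 in limma). ARRDC4, the alpha-arrestin most like it, was lower in all pairs by 0.79 (adjusted p = 0.0152) but lay under a log2 of 4 on all 6 arrays, so its level is close to background. It entered the test only through the Nnm arrays, so its change is given as a value and adds no support to the fall of TXNIP.

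The sequence before the start of both genes is shown because the carbohydrate response element, a spaced pair of E box-like elements of the form CACGTG or CACGAG, is the known route by which glucose drives TXNIP. CACGTG occurred in 7.43% and CACGAG in 6.79% of all promoters, searched on both strands. The 250 bases before the start of TXNIP lie at chr1:145996580-145996829 on the minus strand and those of ARRDC4 at chr15:97960453-97960702 on the plus strand (GRCh38.p14, RefSeq), with these letters in capitals.
TXNIP: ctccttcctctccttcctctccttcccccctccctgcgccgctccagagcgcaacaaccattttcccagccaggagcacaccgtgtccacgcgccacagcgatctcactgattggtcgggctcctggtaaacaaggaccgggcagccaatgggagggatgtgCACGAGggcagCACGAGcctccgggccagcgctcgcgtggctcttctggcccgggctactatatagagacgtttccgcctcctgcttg
ARRDC4: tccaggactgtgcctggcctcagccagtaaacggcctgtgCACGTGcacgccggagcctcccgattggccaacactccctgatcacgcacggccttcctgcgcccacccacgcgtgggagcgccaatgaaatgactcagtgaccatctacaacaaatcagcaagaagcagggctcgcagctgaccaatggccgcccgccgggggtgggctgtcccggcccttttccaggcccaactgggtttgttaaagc
TXNIP has a pair of CACGAG, which begin at -88 and -77 from the start. ARRDC4 has a CACGTG that begins at -210. Of 12 promoters of glucose-sensing and alpha-arrestin genes, 4 held one form or the other (33.3%), against 18.6% of the genes tested.

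Other genes that respond to glucose did not move as one. KLF10, a repressor induced by glucose and by TGF-beta, was at 9.07, 9.10 and 9.53 at 24 h and at 8.35, 8.47 and 8.74 at 48 h, with no overlap (change -0.71, SE 0.07, adjusted p = 0.0148). MLX, the partner of the glucose-sensing factors, rose by 0.49. Of the 11 genes of that list 1 rose and 3 fell, ARRDC4 being 1 of the falls. With the filter on the control mean 10 were tested, of which 1 rose and 2 fell. Of 26 glucose uptake and glycolysis genes 4 rose and 3 fell, with a median of -0.03. SLC2A1, the basal glucose transporter, fell from 7.14, 7.09 and 7.52 to 6.60, 6.48 and 6.88, by 0.59. TIGAR, which holds back glycolysis, fell by 0.53, while PFKFB2, whose kinase activity makes the activator of phosphofructokinase, rose from 6.66, 5.95 and 5.95 to 7.35, 6.92 and 7.20. The PFKFB2 groups did not overlap, and the change was 0.97 (SE 0.12, adjusted p = 0.0186). Of 12 genes of gluconeogenesis and the pentose phosphate route 1 rose and 0 fell, and it was PC, pyruvate carboxylase, at 0.61. Of 25 hypoxia targets 7 rose and 4 fell, in no common direction. BNIP3 and BNIP3L, receptors for the removal of mitochondria, rose by 0.44 and 0.45 (adjusted p of 0.0518 and 0.0588 with probe sets averaged, where 4 of the 25 rose), and P4HA2 and EGLN3 fell by 0.65 and 0.82. Of 25 oxidative phosphorylation genes 0 passed in limma, and 5 had an unadjusted p under 0.05, against 37.2% of all genes tested (median -0.02).

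Few genes that respond to a shortage of amino acids through ATF4 passed. Of 37 tested 2 rose (7.66% of all genes did) and 0 fell, with a median of 0.26, or 0.16 with probe sets averaged. In 21 of the 37 the 3 pairs all went up (26.8% of all genes tested). In 15 every 48 h value lay above every 24 h value (12.1% of all genes tested). With a stricter filter, a log2 of 6, 7 of 36 rose and 1 fell, and with trend and robust settings 13 of the 37 rose and 1 fell. The medians by pair were 0.54, 0.18 and 0.10, and without the replicate 1 pair the median was 0.14. DDIT3, a transcription factor of the integrated stress response, was at 7.71, 7.97 and 7.78 at 24 h and at 10.75, 8.73 and 8.71 at 48 h. The 48 h values were all higher and that of replicate 1 by far the highest, so the mean difference of 1.58 had an adjusted p of 0.0842. CHAC1, which degrades glutathione, read 4.12, 3.68 and 4.09 and then 6.96, 4.53 and 4.29 (adjusted p = 0.145). ASNS, asparagine synthetase, differed by 0.60 (adjusted p = 0.153) and ATF3 by 1.35 (adjusted p = 0.0817), again without overlap. The members that passed were GDF15, a secreted stress hormone, which rose by 0.80 from 10.21, 10.34 and 10.34 to 11.44, 10.71 and 11.15, and SLC38A2, a carrier of neutral amino acids that rises when these run short, by 0.42. Of 21 unfolded protein response genes 4 rose and 3 fell. HERPUD1 and DNAJB9, which serve degradation from the endoplasmic reticulum, rose by 0.62 and 0.61, and SDF2L1 fell by 0.80. With probe sets averaged HERPUD1 differed by 0.37 (adjusted p = 0.0828), and 1 of the 21 rose. Of 13 heat shock genes 0 passed in limma, 8 had an unadjusted p under 0.05 (37.2% of all genes) and 10 were lower in all 3 pairs (32% of all genes), with a median of -0.20.

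**Figure D3:**
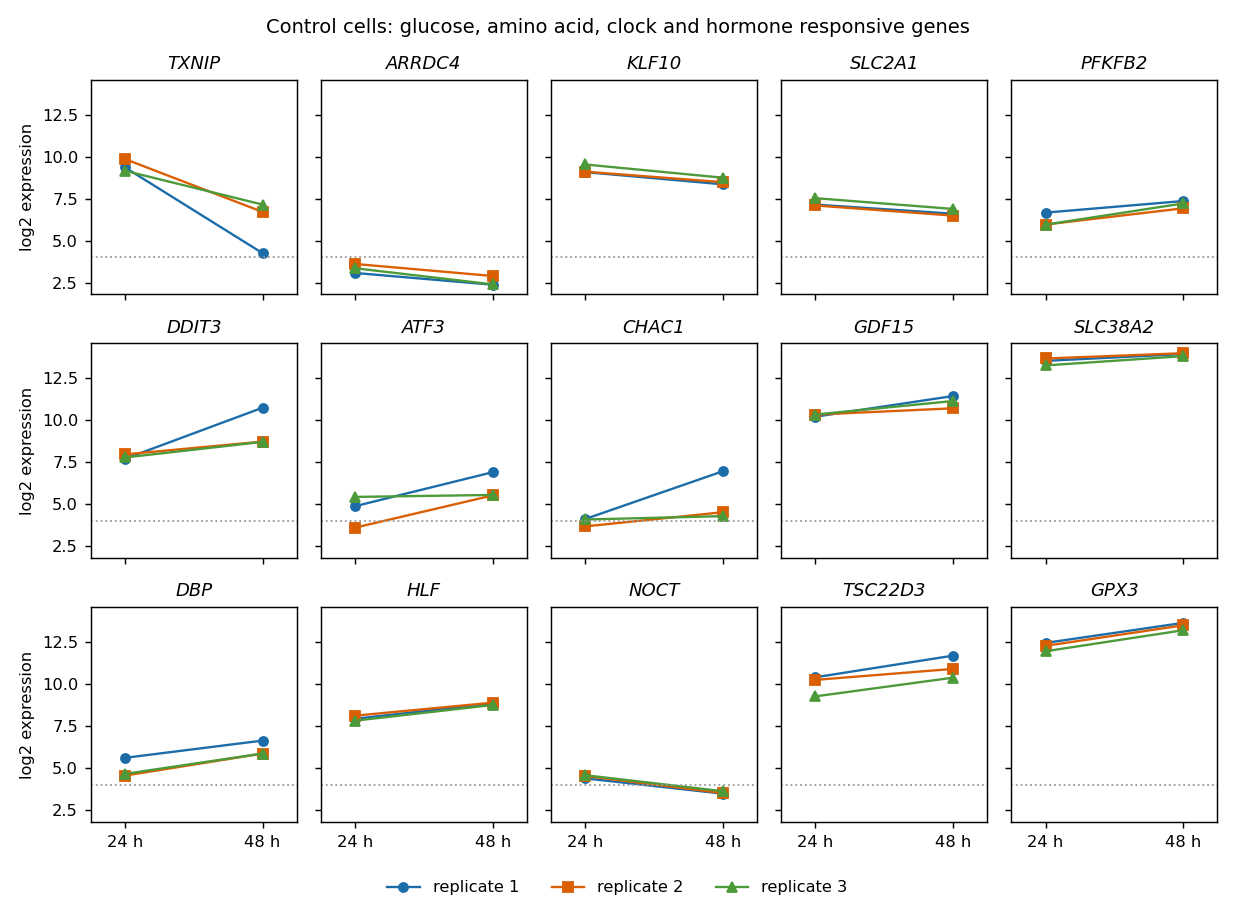
Log2 expression of 15 genes of glucose, amino acid, clock and steroid response at 24 h and 48 h in control cells, 1 line per replicate pair, dotted line at a log2 of 4. TXNIP falls in every pair, DDIT3 and CHAC1 climb mostly in replicate 1, and DBP, HLF and GPX3 rise by like amounts in all pairs.

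Genes of slow growth and of lipid and lysosome supply rose in small numbers, 2 to 7 per list. In the main test, with 1 probe set per gene, these were larger shares than the 7.66% of all genes tested. The shares were 25% of FOXO targets, 21.9% of lysosome and autophagy genes and 14.3% of cholesterol genes. They were 15.4% for fatty acid synthesis and 13.3% for fatty acid oxidation. With probe sets averaged, where 752 of 10907 genes rose, 3 of 16 FOXO targets rose and 1 fell. Of 21 cholesterol genes 2 then rose and 2 fell, and 1 of 13 fatty acid synthesis genes rose, near the share of all genes. Lysosome and autophagy genes stayed at 7 of 32 and fatty acid oxidation at 2 of 15. Of 16 targets of FOXO factors, which act when insulin signalling is low, 4 rose and 0 fell (median 0.19). They were FOXO3 itself (0.42), KLHL24 (0.68, or 0.35 with probe sets averaged, adjusted p = 0.0699), the repressor BCL6 (0.61) and TRIB2 (0.48). Of 32 lysosome and autophagy genes 7 rose and 0 fell. CTSH, a lysosomal protease, went from 10.76, 10.60 and 10.32 to 11.84, 11.20 and 11.37, by 0.91, and GPNMB, a membrane protein of stressed lysosomes, rose from 11.46, 11.68 and 10.59 to 12.43, 12.55 and 11.84, by 1.03. Neither overlapped between times. Of 21 cholesterol genes 3 rose, among them INSIG1 (0.52, adjusted p = 0.0503 with probe sets averaged) and MSMO1 (0.32), and ACAT2 fell by 0.36. Of 13 fatty acid synthesis genes 2 rose and 0 fell, ACSS2, which makes acetyl-CoA from acetate, by 0.60 and LPIN1 by 0.42 (0.21 with probe sets averaged, adjusted p = 0.286). Of 15 genes of fatty acid oxidation 2 rose and 0 fell, PPARA, their nuclear receptor, by 0.62 and HADHB by 0.33. Of 10 iron genes SLC11A2, an iron importer, rose by 0.63 (0.35 with probe sets averaged), and TFRC, the transferrin receptor, fell by 0.39, with probe sets that differed in direction (adjusted p = 0.0581 when averaged).

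Genes of steroid response and of the circadian clock rose more often than they fell. Of 13 glucocorticoid targets 3 rose, 0 fell and 9 were higher in all 3 pairs (26.8% of all genes tested), with a median of 0.25, or 0.087 with probe sets averaged. TSC22D3, the glucocorticoid-induced leucine zipper, was at 10.40, 10.24 and 9.27 and then at 11.69, 10.90 and 10.38. The groups overlapped because replicate 3 was low at both times, while the paired change was 1.02 (SE 0.14, adjusted p = 0.0196). MAOA, monoamine oxidase, rose by 0.80 and TMT1A, a thiol methyltransferase, by 1.43. Of 16 clock genes 5 rose and 1 fell (31.25% and 6.25%, against 7.66% and 9.42% of all genes tested). DBP, an output factor of the clock, rose from 5.61, 4.55 and 4.65 to 6.63, 5.86 and 5.86, by 1.18 (SE 0.08, adjusted p = 0.0121). HLF, of the same family, rose from 7.93, 8.12 and 7.82 to 8.84, 8.89 and 8.75, by 0.87. PER2, NR1D2 and BHLHE41 rose by 0.57, 0.48 and 0.75, the last 2 with adjusted p of 0.096 and 0.0584 when probe sets were averaged, where 3 of the 16 rose. NOCT, a rhythmic phosphatase of nicotinamide cofactors, fell from 4.38, 4.52 and 4.57 to 3.47, 3.51 and 3.62, close to background, by 0.96. At what hour cells were harvested is not stated in the labels.

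Growth factor and early response genes went both ways. Of 32 genes of EGF and MAP kinase response 6 rose and 5 fell. FOSL1, an AP-1 subunit induced by sustained MAP kinase activity, was at 5.59, 4.67 and 6.86 at 24 h and at 3.64, 2.87 and 5.34 at 48 h. The groups overlapped since replicate 3 was high at both times, but the pairs fell by nearly the same amount (change -1.76, SE 0.10, adjusted p = 0.0121). JUN and FOSL2 fell by 0.51 and 0.43 (with probe sets averaged JUN had an adjusted p of 0.0561 and FOSL2 fell by 0.68), and the EGF receptor ligand HBEGF fell by 1.04. Among the feedback inhibitors of the same route, SPRY1 rose from 6.15, 5.76 and 4.56 to 7.57, 7.07 and 6.41, by 1.53 (SE 0.12, adjusted p = 0.0121), SPRY4 by 0.64, DUSP6, the ERK phosphatase, by 0.44 and LRIG1, which removes EGF receptors, by 0.41, while SPRY2 (-0.01) and ERRFI1 (-0.26) did not pass. Of 32 targets and regulators of YAP and TEAD, the factors that sense cell crowding, 0 rose and 3 fell (median -0.10). The standard targets CCN1 (-0.45, adjusted p = 0.0704) and CCN2 (-0.23, adjusted p = 0.136) did not pass. The fallen members were NF2, an upstream regulator, by 0.56 (0.95 with probe sets averaged), TEAD2 and NT5E, the last 2 with adjusted p of 0.064 and 0.221 when probe sets were averaged. The TEAD motif GGAATG was in 8 of 28 promoters of that list (28.6%), against 14% of all. Of 20 Wnt and Notch genes 2 rose and 1 fell (10% and 5%, against 7.66% and 9.42% of all genes tested). The ligand RSPO3 fell from 6.63, 6.18 and 6.07 to 5.32, 5.20 and 5.04, by 1.11, while ZNRF3 and LGR4, an antagonist and a receptor of the same route, rose by 0.54 and 0.39, LGR4 with an adjusted p of 0.0645 when its probe sets were averaged.

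TGF-beta and matrix genes fell more often than they rose. Of 23 TGF-beta family members and targets 6 fell and 2 rose (26.1% and 8.7%). Of 35 matrix, integrin and protease genes 11 fell and 5 rose (31.4% and 14.3%). Over all genes tested 9.42% fell and 7.66% rose, so falls were more frequent there too, and matrix genes exceeded these shares in both directions. INHBA, the activin A subunit, was at 6.95, 7.49 and 7.66 at 24 h and at 5.08, 4.84 and 4.96 at 48 h. The groups lay far apart (change -2.41 or 5.31-fold, SE 0.18, adjusted p = 0.0121), and INHBA passed with no replicate term as well. Its relative INHBE had risen by 2.19. THBS1, an activator of latent TGF-beta, fell from 8.65, 8.06 and 8.46 to 7.28, 6.89 and 6.89, by 1.37. TGFBI, PMEPA1 and LTBP2, targets and a binding protein of the route, fell by 1.14, 0.90 and 0.69. TAGLN, an actin-binding protein of smooth muscle and of spread cells, was at 6.82, 4.38 and 5.55 and then under a log2 of 4 in all cultures (change -2.30, adjusted p = 0.0409). ACTA2, smooth muscle actin, did not pass (0.15). SMTN and DPYSL3, further cytoskeletal genes, fell by 1.44 and 1.69.

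Proteases that digest matrix were among the falls. MMP1, interstitial collagenase, was at 7.12, 7.13 and 7.13 at 24 h, nearly equal, and at 2.61, 4.90 and 5.12 at 48 h. All 48 h values were lower and that of replicate 1 was at background (change -2.92, SE 0.52, adjusted p = 0.0301). MMP7 fell by 0.93, and MMP9 (-0.21) and MMP14 (-0.32) did not pass. PLAT, PLAU and PLAUR, the plasminogen activators and the receptor of one, fell by 1.71, 0.47 and 0.85. The integrins ITGA3 and ITGA5 fell by 0.59 and 0.52 and ITGB8 rose by 0.58, or 0.38 with probe sets averaged, which differed in direction. Among collagens and laminins COL1A1, COL6A1, COL7A1 and COL12A1 fell, by 0.41 to 0.86, and COL4A3, COL4A4, LAMB1 and LAMC1, chains of basement membrane, rose, while COL4A1 (0.08) and COL4A2 (0.18), the most widespread chains of that membrane, did not pass. COL1A1 and LAMC1 had adjusted p of 0.0574 and 0.0748 when their probe sets were averaged, with changes of -0.39 and 0.23.

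Other large falls were of genes with varied roles as well. SLN, sarcolipin, an inhibitor of the calcium pump of the endoplasmic reticulum, went from 8.36, 7.78 and 9.08 to 5.40, 4.24 and 7.04, a change of -2.85. GAL, the neuropeptide galanin, went from 8.87, 8.14 and 9.41 to 6.52, 5.64 and 7.83, a change of -2.14. Neither overlapped, and replicate 3 was highest at both times in each. TM4SF4, a tetraspan membrane protein, fell by 2.45, and TNFAIP6, a hyaluronan-binding protein of inflammation, by 2.40 to values under a log2 of 4. The noncoding RNA LINC00973 fell by 2.15. DDIAS, a gene of DNA damage survival, fell by 1.44. Of 26 NF-kB and cytokine genes 2 rose and 4 fell. CXCL5 and CCL20, chemokines for neutrophils and for lymphocytes, fell by 1.40 and 1.21, and CCL2, a chemokine for monocytes, rose from 5.98, 6.97 and 5.50 to 6.85, 8.23 and 6.88, by 1.17 with overlap. Of 28 interferon-stimulated genes 3 rose and 2 fell (10.7% and 7.14%, against 7.66% and 9.42% of all genes tested). Their median was 0.06. ISG15 and OAS3 fell by 0.57 and 0.60, and IFITM1 and IFI44L were among the rises (0.76 and 0.71 with probe sets averaged). Of 22 NRF2 targets 4 fell and 1 rose. GSTP1, NQO1, GCLM and TXN, enzymes and proteins of redox defence, fell by 0.63, 0.53, 0.47 and 0.32 (TXN -0.19, adjusted p = 0.156, with probe sets averaged), while GPX3, the plasma glutathione peroxidase that kidney tubules secrete, rose from 12.45, 12.27 and 11.95 to 13.64, 13.49 and 13.20, by 1.22 (SE 0.07, adjusted p = 0.0121). Of 10 metallothionein and zinc genes 4 fell and 0 rose, among them MT1M (-0.49), MT1X (-0.34) and MT1G (-0.34), whose probes may share signal with near-identical copies.

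Of 53 proximal tubule transport and enzyme genes listed, 50 were on the array, 30 of these were under the filter and 20 were tested, of which 9 rose and 1 fell (median 0.30). FXYD2, the gamma subunit of the sodium pump, was at 12.88, 12.70 and 12.29 at 24 h and at 14.16, 13.77 and 13.38 at 48 h. The groups did not overlap (change 1.15 or 2.21-fold, SE 0.08, adjusted p = 0.0121). SLC4A4, the basolateral sodium bicarbonate cotransporter, rose from 11.36, 11.66 and 10.65 to 12.30, 12.63 and 11.82, by 1.03. SLC3A1, the heavy subunit of the apical cystine carrier, rose from 8.78, 8.48 and 7.91 to 9.71, 9.44 and 8.82, by 0.93. DDC, which makes dopamine in the tubule, rose by 1.04, or by 0.65 with probe sets averaged, PDZK1, an apical scaffold, by 0.71, MIOX, which opens inositol, by 0.63, and the peptidase DPP4 by 0.40. PDZK1IP1 and the efflux pump ABCC4 rose by 0.43 and 0.36, the latter with an adjusted p of 0.0527 when its probe sets were averaged. The exception was SLC2A2, the basolateral glucose carrier, at 4.17, 4.03 and 3.69 and then at 3.70, 2.65 and 2.50, which lies at background. It too met the filter only with the help of Nnm arrays. With the filter on the control mean 19 genes of the list were tested, of which 9 rose and 0 fell. The 9 defining markers named at the start stayed under a log2 of 4 at 48 h too, and of the 3 that were measured CDH16 rose and CDH6 fell. Of the 4 markers of distal nephron and collecting duct tested 1 passed, TFCP2L1, which rose by 1.62 (0.93 with probe sets averaged). SCNN1A (0.45, adjusted p = 0.0724), AQP3 (0.53, adjusted p = 0.233) and SLC12A1 (-0.03) did not pass. The log2 of the summed level of that marker list was 9.17 to 9.61 at 24 h and 9.87 to 10.04 at 48 h, without overlap, and that of the proximal tubule markers was 12.95 to 13.27 and 12.87 to 13.04. Of 3 podocyte markers tested 0 passed in limma, and 0 had an unadjusted p under 0.05. The part of other nephron segments in these changes was not tested. Without the replicate 2 pair 6 of the 20 rose, and without either other pair 0 passed.

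Junction, keratin and injury genes moved in both directions. Of 29 junction and polarity genes 5 rose and 2 fell (17.2% and 6.9%, against 7.66% and 9.42% of all genes tested). OCLN, occludin, CLDN3, PARD6B and CDH1, E-cadherin, rose by 0.50, 0.45, 0.46 and 0.30, and CDH16, the kidney cadherin, went from 9.36, 8.39 and 8.12 to 9.95, 9.02 and 8.89, by 0.66. CDH6, a cadherin of the developing proximal tubule, fell by 0.37, with probe sets that differed in direction (-0.22, adjusted p = 0.169, when averaged), and DSP, desmoplakin, by 0.43. Of 14 keratin and surface genes KRT8, KRT18 and KRT7 fell by 0.53, 0.54 and 0.51, while KRT20 and MUC1, an apical mucin, rose by 1.69 and 0.79. Of 9 kidney transcription factors TFCP2L1 and IRX3 rose and SOX9, a factor of tubule repair, fell from 8.20, 7.89 and 8.25 to 7.46, 6.82 and 6.49, by 1.19. Of 22 injury markers 5 rose and 6 fell. CLU and CHI3L1, secreted proteins of injured tubule, rose by 0.87 and 1.22, PROM1 by 1.07, and VIM, CD44 and ANXA1, genes of the dedifferentiated cell, fell by 0.35, 0.68 and 0.55. HAVCR1, the injury marker KIM-1, did not differ by more than its spread (0.00, SE 0.07, adjusted p = 0.998). The fibroblast markers TAGLN and COL1A1 fell, 5 of the 10 stayed under a log2 of 4, and the part of other cells in these changes was not tested.

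**Figure D4:**
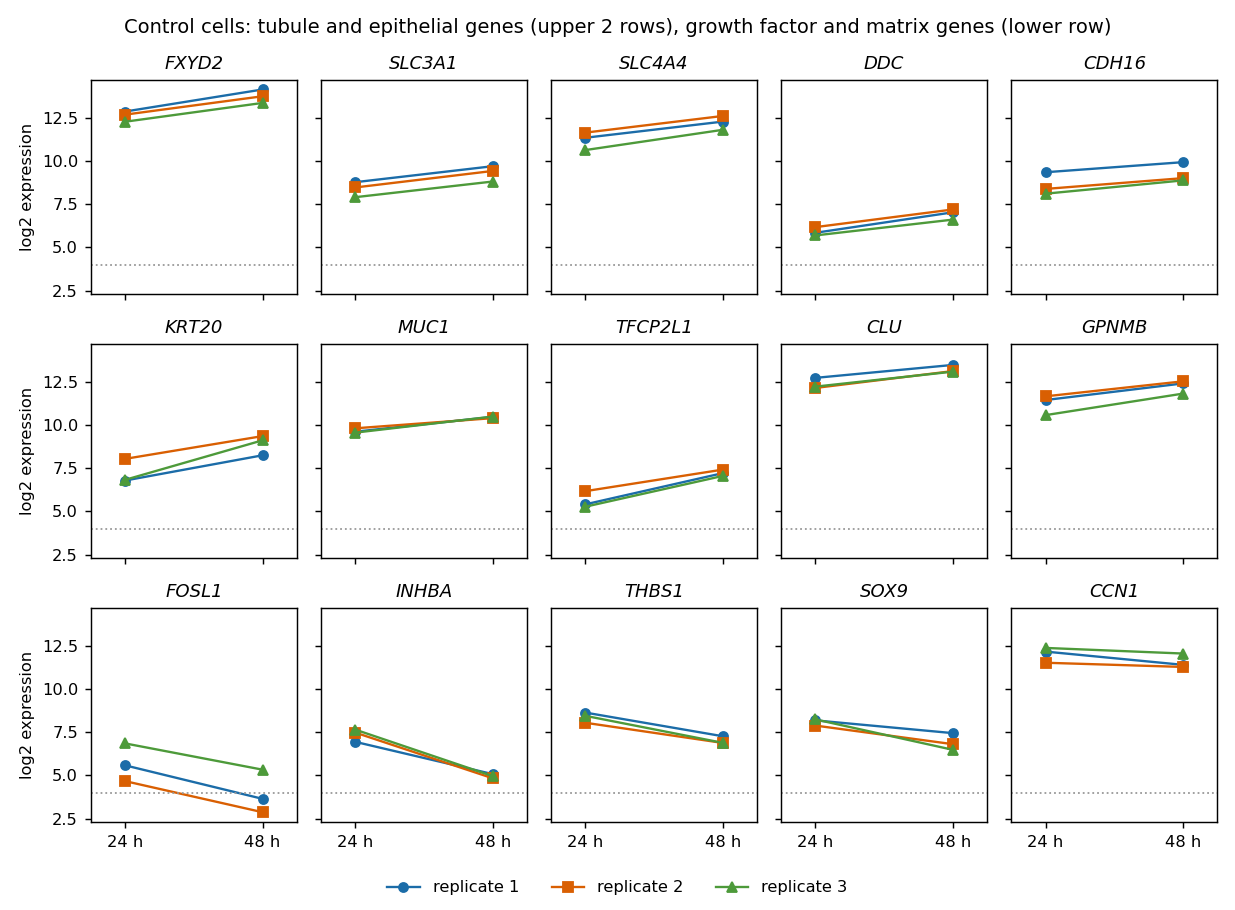
Log2 expression of 15 tubule, epithelial, growth factor and matrix genes at 24 h and 48 h in control cells, 1 line per replicate pair, dotted line at a log2 of 4. The lines for FXYD2, SLC3A1 and SLC4A4 run upward in parallel, those for FOSL1, INHBA, THBS1 and SOX9 run downward, and those for CCN1, which did not pass, differ in slope.

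The same genes were followed in cells given the low dose of Nnm. Of the 836 genes that rose in control cells 451 were higher in all 3 Nnm pairs and 31 lower, and of the 1027 that fell 420 were lower in all 3 and 47 higher. Over all genes tested 20.8% were higher in all 3 Nnm pairs and 23.8% lower. The median change of the rises was 0.52 in control and 0.25 in Nnm cells, and of the falls -0.49 and -0.13. The genes were chosen by their control change, so these counts and medians are a description. The difference between both time courses, tested gene by gene over 12 arrays with pairs as blocks, passed for 0 genes in limma (smallest adjusted p = 0.0614), with an unadjusted p under 0.05 in 2034 genes (18.6%).

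The mitosis genes show the contrast most plainly as values. Their median change was -0.59 in control and 0.12 in Nnm cells, and 0 of the 45 were lower in all 3 Nnm pairs. The median level of the list was 11.02 in control and 10.74 in Nnm cells at 24 h, and 10.47 and 10.85 at 48 h. The difference between the time courses had an unadjusted p under 0.05 in 41 of the 45 genes, and its adjusted p passed in 0. CCNB1 in Nnm cells was at 11.99 ± 0.25 at 24 h and 12.03 ± 0.29 at 48 h (SD, n = 3), against 12.45 ± 0.21 and 11.68 ± 0.24 in control cells. The difference of the changes was 0.81 (SE 0.17, adjusted p = 0.128 in limma). DNA replication genes had medians of -0.44 and 0.01, and 20 of 39 had an unadjusted p under 0.05. Proximal tubule genes had medians of 0.30 and 0.33, and 6 of 20 differed at that level.

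TXNIP was at 12.11 ± 0.25 and 12.16 ± 0.40 in Nnm cells at 24 h and 48 h (SD, n = 3), above every control value at both times. Its change differed by 3.47 (SE 0.68, adjusted p = 0.125). The smallest p for a difference belonged to COL4A3, which rose by 2.28 in control cells and changed by -0.18 in Nnm cells, to HDAC11, a histone deacetylase (0.65, or 0.37 with probe sets averaged, and -0.39), to NOCT (-0.96 and 0.05) and to the sialyltransferase ST6GALNAC2 (0.01 and 1.37), all with an adjusted p of 0.0614. FOSL1 (-1.76 and -0.28, adjusted p = 0.0697) came next.

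**Figure D5:**
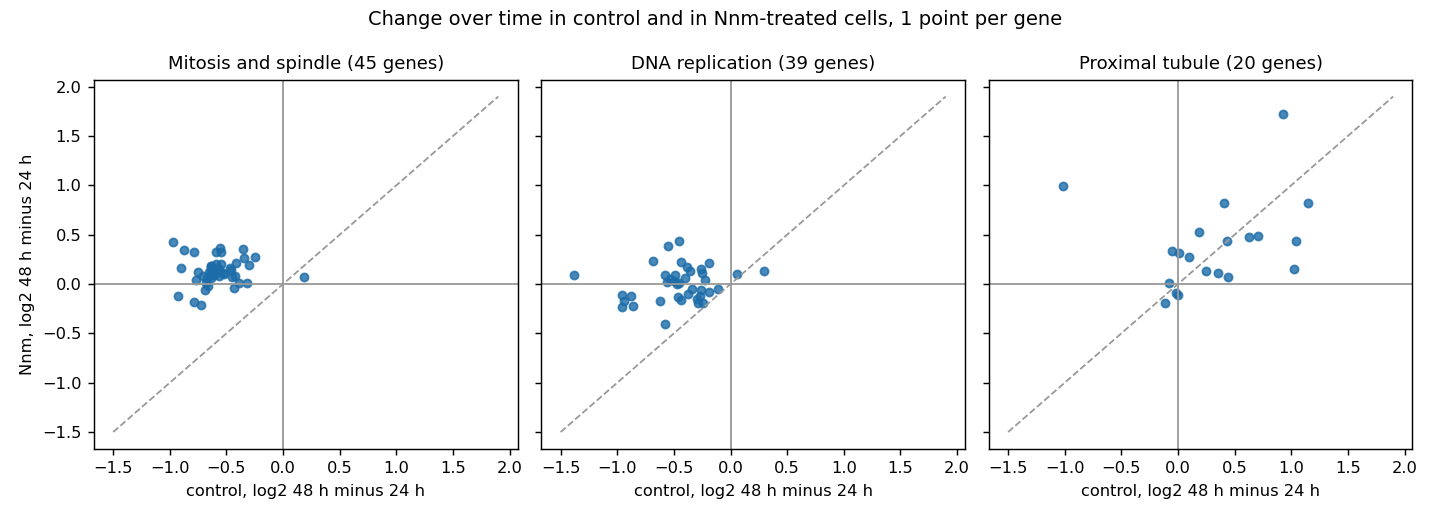
Log2 change from 24 h to 48 h in control cells (horizontal axis) and in Nnm cells (vertical axis), 1 point per gene, for 3 gene lists, with a dashed line where both are equal. Mitosis genes other than CDC25B lie left of 0 and near 0 in height, with medians of -0.59 and 0.12, while most proximal tubule genes lie to the right of and above 0.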

How the data were processed

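Total RNA of HK-2 cells became biotin-labelled cRNA for Affymetrix arrays, per the labels' protocols. The authors deposited log2 expression values made with GCRMA, which corrects background by probe sequence, quantile-normalises and summarises probe sets, per the submitters' processing notes. The log base was read from the range of values, and the version and the set of arrays normalised together are not given in the sources used here. GCRMA pulls weak signals to a common low level, so a change that starts or ends under a log2 of 4 is poorly measured. The number of arrays limits the precision.

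Of 54675 probe sets 62 were controls, 41091 had 1 gene symbol in the platform annotation, 1801 several and 11721 none. Gene identifiers of 41037 matched RefSeq (GRCh38.p14), which changed 0 symbols. Of those with 1 gene, 19832 exceeded a log2 of 4 on 3 or more of the 12 arrays and were kept, and each of the 10907 genes was taken from its probe set of highest mean over 12 arrays.

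The test was that of limma 3.58.1 (lmFit and eBayes, R 4.3.3) on the 6 control arrays with the replicate number as a block, and p adjusted by Benjamini and Hochberg over all genes tested. Changes are means of 3 paired log2 differences and each SE is limma's, with 2 residual and 2.81 prior degrees of freedom. Replicate numbers, which titles give in all groups, pair the arrays. As a description, every pair of same-numbered residuals correlated above 0.1 (0.517, 0.597 and 0.566). The difference between Nnm and control time courses used all 12 arrays with 6 pairs as blocks.

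The members and the 37 gene lists were chosen with earlier results of these data known. Genes named by rule were the 15 largest rises and 15 largest falls called with 3 pairs of 1 direction and no overlap, from each list at most 4 members of smallest p, the 5 genes each way with the smallest p for the treatment difference, and the 10 highest levels at each time. Further genes named, 85 in number, were chosen after their values were seen, as were the promoters printed and the joint motif count. On simulated data with noise independent between genes, which these data need not have, 61.2%, 100% and 100% of changes of 0.5, 1 and 2 log2 units were recovered for the control comparison, with 9 false calls and 0 in data without change. For the difference the shares were 31.3%, 92.5% and 98.5%, with 11 false calls. Alternatives were no block, blocks over 12 arrays, other filters, averaged probe sets, quantile normalisation, median centring, trend and robust settings, and each pair left out. Plots were made in Python 3.11.15 (matplotlib 3.10.9).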

Additional observations from a re-analysis of the deposited data

Results flagged for a closer look

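In 21 of the genes named (185 by rule and 85 further), all 3 control pairs moved one way from 24 h to 48 h and all 3 Nnm pairs the other. Over all genes tested 26.8% had 3 control pairs up and 32% down. For the Nnm pairs the shares were 20.8% and 23.8%. The share of all genes with opposite pairs was not counted, so 21 is not to be read as many or few. The difference between the time courses, Nnm change minus control change on the log2 scale, was tested gene by gene in limma over 12 arrays, and for none of the 21 did its adjusted p pass 0.05 in that test. The genes were named for their control change, for this difference, for a high level (ATP6 and ND4) or after values were seen, so their number is a description.

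Among genes higher at 48 h in control and lower in Nnm cells, COL4A3 differed by -2.46, CHI3L1 by -1.6, CHAC1 by -1.48, CLCN4 by -1.37, PC by -1.36, GPNMB by -1.13 and HDAC11 by -1.05 (adjusted p from 0.0614 for COL4A3 and HDAC11 to 0.252 for CHAC1). ASNS differed by -0.829, LPIN1 by -0.749, HADHB by -0.487 and TKT by -0.383. The mitochondrial transcripts ATP6 and ND4 differed by -0.201 and -0.145, with adjusted p of 0.358 and 0.472. The probe sets of CLCN4 and of TKT did not share a direction in control cells.

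Among genes lower at 48 h in control and higher in Nnm cells, SLC2A2 differed by 2.01, LYPD1 by 1.41, CDH6 by 1.32, NOCT by 1.01, KANSL1-AS1 by 0.907, JUN by 0.827, KLF10 by 0.785 and UCP2 by 0.673 (adjusted p from 0.0614 for NOCT to 0.151 for UCP2). SLC2A2 was at 3.96 ± 0.25 and 2.95 ± 0.65 in control cells at 24 h and 48 h and at 4.67 ± 0.89 and 5.66 ± 0.40 in Nnm cells (SD, n = 3). The control values of SLC2A2 are at background, and the probe sets of CDH6 did not share a direction.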

How the results depend on the processing

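The count of 1863 genes changed in control cells became 4 with no replicate block and 6 arrays, 14 with no replicate block and 12 arrays, 924 with the replicate block across all 12 arrays (865 of them shared), 263 with no filter (19775 genes tested) and 2913 with trend and robust settings. Leaving out 1 pair gave 0 to 582, the value of 0 without replicate 1 and without replicate 3. Under a block within treatment, a stricter filter, a filter on the control mean, averaged probe sets, quantile normalisation and median centring the count stayed between 1528 and 2336. Every one of the 1863 that could be tested kept its sign in these settings, apart from 7 with averaged probe sets (1856 kept it). Of the 202 named genes that passed, 73 also passed under both 12-array blocks and without replicate 2, and 25 lost the call with averaged probe sets, among them TOB1, INSIG1, BNIP3, BNIP3L, BHLHE41, NR1D2, LGR4, JUN, TXN, HERPUD1, LAMC1 and ABCC4 (adjusted p 0.0503 to 0.156). All 202 had an unadjusted p under 0.05 without each pair in turn. The 202 and the 1863 were chosen on the same arrays that these settings reuse, so this count and the kept signs are a description. Genes whose time course differed between Nnm and control cells, 0 in the main test, numbered 2 with the replicate block across all 12 arrays (COL4A3 and NOCT), 5 with no filter, 5 with averaged probe sets and 4 with median centring, and 0 without each replicate in turn, where 833 to 2481 genes had an unadjusted p under 0.05. The cause of these shifts was not tested. Medians of the lists moved by more than the spread of the pairs in 38 of 259 list and setting combinations. Signal over background limits genes such as SLC2A2, ARRDC4 and NOCT.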
